A study of Mus musculus with 6 samples.

Results

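Ribosome biogenesis factors build ribosomes without being part of the finished particle, and 44 mouse genes of this class are described here: RNA polymerase I subunits and their cofactors, proteins of small nucleolar ribonucleoprotein particles (snoRNPs), and nucleolar factors that assemble the small and the large ribosomal subunit. They were chosen by gene symbol, and all 44 were found among the 26216 gene names in the files, each listed a single time. Messenger RNA was sequenced from long-term and short-term hematopoietic stem cells (LT/ST-HSCs) sorted from bone marrow of mixed chimeras, to ask what the lymphotoxin beta receptor (Ltbr) does in these cells. Lin-, Sca-1+, c-Kit+ cells (LSKs) of Ltbr-/- donors, which carry CD45.2, and of Ly5.1 donors, which carry CD45.1 and an intact Ltbr, had been given together to Ly5.1/Ly5.2 recipients after lethal irradiation, and cells of both genotypes were taken 6 weeks later. Cells of several chimeras were pooled, giving 3 Ltbr-/- and 3 Ly5.1 samples. The Ltbr-/- donors were 13 weeks old for replicate 1, 10 weeks for replicate 2 and 10 to 13 weeks for replicate 3, and the Ly5.1 donors were 7 to 13 weeks old, so that donor age and genotype were not fully separated. The CD45 form differs between the groups in the same way as the genotype, and effects of linked donor DNA and of Ltbr loss cannot be told apart.

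Ribosome production begins in the nucleolus, where RNA polymerase I transcribes the ribosomal DNA (rDNA) into a long precursor RNA. Guided by small nucleolar RNAs, box C/D snoRNPs methylate this precursor and box H/ACA snoRNPs convert selected uridines to pseudouridine, while a series of assembly factors folds, cuts and exports the subunits. In hematopoietic stem cells protein synthesis is kept low and tightly set, and inherited defects in ribosome production or in the H/ACA particle cause bone marrow failure.

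The deposited value of a gene is a signal without unit, equal to 2 to the power of the authors' regularized log, so a log2 fold change is a difference of regularized logs and understates changes of weakly expressed genes. All 44 members lay high in the range, with mean signals over the 6 samples from 499 to 19100, and all were among the 13108 gene names tested (those with a mean in the upper 50%). A gene is called here at an adjusted p under 0.05 in limma, Ltbr-/- against Ly5.1. Ltbr itself had a signal of 23.1 to 26.4 in the Ltbr-/- samples and of 522 to 564 in the Ly5.1 samples, which matched the labels. All 12 listed HSC markers passed the filter; their summed signal was 14600 to 15100 in Ltbr-/- and 16700 to 16800 in Ly5.1, and Ly6a and Meis1 were called lower. Of markers of other cells, all 10 neutrophil genes were called lower (summed signal 43900 to 44500 in Ltbr-/- against 57600 to 62300 in Ly5.1). Of 7 tested mast cell and basophil genes Cma1 and Cpa3 were higher and Prss34 lower (7530 to 8100 against 4140 to 4730), and Tpsb2 had the same value in every sample. The higher sum came from Cma1 (mean signal 5470 in Ltbr-/- against 2195 in Ly5.1) and Cpa3 (1303 against 888). Mcpt8, Ms4a2 and Fcer1a lay lower and Gzmb higher without a call, and the list's median log2 fold change was -0.04. Hba-a1 and Hba-a2 of 9 erythroid genes were higher (4980 to 5360 against 3590 to 3910). Emr1 and Cd68 of 8 macrophage genes were higher too (2730 to 3030 against 2210 to 2470). Only 3 of these 8 had a log2 fold change above 0, and their median was -0.07. Of 5 megakaryocyte genes Itga2b was higher and Pf4 lower (14100 to 14900 against 12000 to 13300). The higher sum came from Itga2b, with a mean signal of 11640 in Ltbr-/- against 9380 in Ly5.1. Vwf (1946 against 2267) and Gp9 lay lower and Gp1ba higher without a call, and the list's median log2 fold change was -0.02. Of 10 B cell genes 4 passed the filter, with Ighm and Igkc lower and Cd79a higher (1410 to 1550 against 2270 to 2430), and of 8 T cell genes 2 passed the filter and none was called, the summed signals overlapping. In every list other than the T cell list some markers differed with genotype, and their part in the members' values was not tested. In sorted populations, fewer cells of a type and less RNA per cell cannot be told apart.

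Of the 44 members, 7 rose in Ltbr-/- LT/ST-HSCs: Nhp2, Npm1, Nop10, Polr1c, Imp3, Rrp9 and Nip7. Polr1a alone fell. The 7 members are 15.9% of the list, where 10.6% of all tested genes were called higher, and the single lower member is 2.27% of the list, where 4.18% of all tested genes were called lower. With a fold of at least 1.5 as a further threshold, Nhp2 was the only member left on the higher side (2.72% of all tested genes) and none was left on the lower side (0.061% of all tested genes). All 3 Ltbr-/- samples lay above all 3 Ly5.1 samples for 14 members, 17.0% of tested genes doing so, and below them for 5 members, 13.5% of tested genes doing so. The median log2 fold change was 0.08 over the members and -0.01 over all tested genes, with 30 members above 0 and 14 below. All members are strongly expressed, and in a fit of only the upper 25% of names by mean, 10 members were called higher where 17.9% of the 6554 tested genes were, and 4 were called lower where 8.86% were. A linear model without moderation of the variance called 4 members higher, Nhp2, Npm1, Nop10 and Polr1c, where 3.66% of all tested genes were, and none lower, where 0.709% were. A further 10 members had an unadjusted p under 0.05 and did not pass after adjustment, so that 18 of 44 members were under that limit, as were 3555 of the 13108 tested genes. These directions are those of the authors' scaling: with every sample centred on the cytosolic ribosomal protein genes the median over all tested genes moved to -0.88 and that of the members to -0.79, no member was called higher (0.198% of all tested genes) and 43 were called lower (97.9%), while the distance of the members' median from that of all genes stayed at 0.09.

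**Figure D1:**
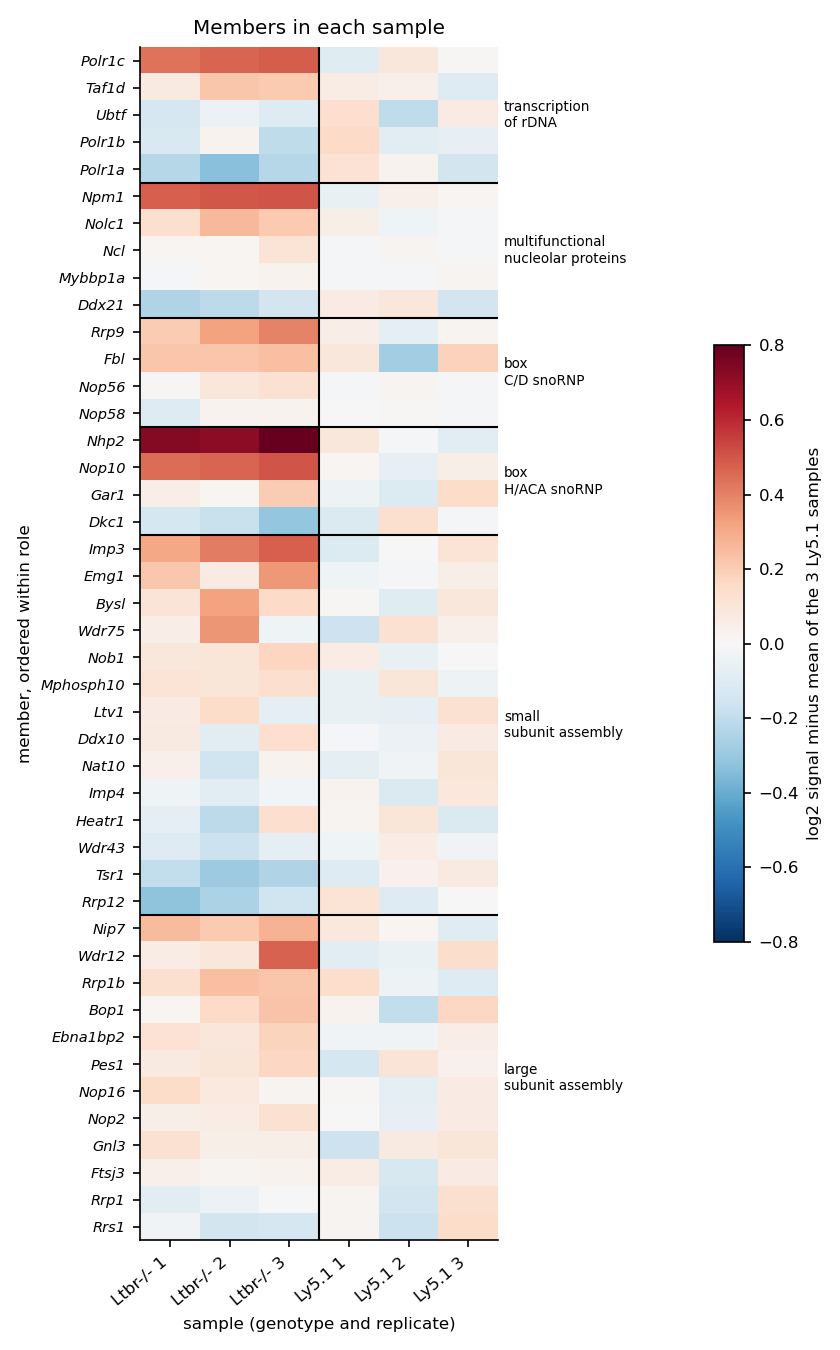
Log2 signal of each member in each of the 6 samples, as the difference from the mean of the 3 Ly5.1 samples, on the authors' scaling (red higher, blue lower); columns are samples, rows are the 44 members within their role. Nhp2, Npm1, Nop10, Polr1c and Imp3 are red in all 3 Ltbr-/- columns, and most other rows are pale in all 6; centred on ribosomal protein genes, all of these log2 fold changes are below 0.

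The 4 core proteins of the box H/ACA particle parted most. This particle carries Dkc1 (dyskerin), the pseudouridine synthase, together with Nhp2, Nop10 and Gar1, and the same proteins bind telomerase RNA. The stretches of 250 bases before the annotated starts of the 4 genes are shown because the transcripts of one particle differed in response; they are RefSeq sequences of GRCm38.p6, written 5′ to 3′ on the strand of the gene, with CCGGAAG or its reverse complement CTTCCGG, the site bound by ETS factors, in capitals.
Nhp2, chr11:51619523-51619772, plus strand: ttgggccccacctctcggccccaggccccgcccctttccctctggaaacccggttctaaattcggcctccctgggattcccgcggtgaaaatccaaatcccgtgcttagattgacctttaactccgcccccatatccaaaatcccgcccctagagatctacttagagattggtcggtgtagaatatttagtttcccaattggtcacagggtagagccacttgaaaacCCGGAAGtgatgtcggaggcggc
Nop10, chr2:112261676-112261925, plus strand: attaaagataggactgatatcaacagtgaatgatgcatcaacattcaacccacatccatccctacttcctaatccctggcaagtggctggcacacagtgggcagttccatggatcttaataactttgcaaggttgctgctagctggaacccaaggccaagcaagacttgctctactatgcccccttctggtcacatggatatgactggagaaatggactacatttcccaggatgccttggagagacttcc
Gar1, chr3:129831397-129831646, minus strand: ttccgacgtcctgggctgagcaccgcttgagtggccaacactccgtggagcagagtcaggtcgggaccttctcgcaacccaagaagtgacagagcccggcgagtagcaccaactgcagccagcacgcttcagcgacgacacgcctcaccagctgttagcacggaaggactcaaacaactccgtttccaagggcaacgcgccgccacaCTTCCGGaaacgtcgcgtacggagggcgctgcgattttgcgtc
Dkc1, chrX:75095604-75095853, plus strand: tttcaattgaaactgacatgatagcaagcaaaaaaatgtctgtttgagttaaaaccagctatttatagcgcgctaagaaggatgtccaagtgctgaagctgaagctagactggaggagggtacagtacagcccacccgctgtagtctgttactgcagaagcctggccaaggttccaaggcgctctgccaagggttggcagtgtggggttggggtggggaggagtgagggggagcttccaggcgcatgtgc
The motif lies 23 bases before the start in Nhp2 and 43 bases before it in Gar1, and is not in the windows of Nop10 and Dkc1. Searched on both strands, CCGGAAG was in 11 of the 39 members with a promoter entry (28.2%), in 15.7% of 10097 tested genes and in 7.8% of all 27025 promoters. The E-box CACGTG, which Myc and Max bind and which cannot overlap with the first motif, was in 2 of 39 (Imp4 and Nop2), against 9.9% of tested genes and 6.9% of all. Of the 11 members with CCGGAAG 3 were called higher, and of the 28 without it 3 were called higher and Polr1a lower; both motifs were picked with the data in view, and a match is a description of the letters.

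Nhp2, which binds the RNA and joins it to Nop10, showed the largest change of any member. Its signal was 2328, 2298 and 2479 in Ltbr-/- and 1492, 1392 and 1322 in Ly5.1. The groups were far apart, each Ltbr-/- sample exceeding the highest Ly5.1 sample by more than the whole range within either group, with a log2 fold change of 0.76 (SE 0.08, adjusted p = 3.74e-09). Among the 13108 tested genes this was rank 186 by log2 fold change. Nop10, the small protein that holds Nhp2 and Dkc1 together, had a signal of 1244, 1258 and 1293 in Ltbr-/- and 922, 871 and 943 in Ly5.1. Again no sample overlapped, and the log2 fold change was 0.47 (SE 0.09, adjusted p = 7.57e-05). Gar1, which helps release the modified RNA, had 661, 644 and 736 in Ltbr-/- and 621, 591 and 708 in Ly5.1. The Gar1 groups overlapped, with a log2 fold change of 0.09 (SE 0.09, adjusted p = 0.592). Dkc1 went the other way, with 1679, 1634 and 1490.2 in Ltbr-/- and 1706, 2016 and 1832 in Ly5.1. All 3 Ltbr-/- samples were below the Ly5.1 samples for Dkc1, but the log2 fold change of -0.21 (SE 0.09, adjusted p = 0.103) did not pass. Within each sample the ratio of Nhp2 to Dkc1 signal does not depend on a scaling factor per sample: on the log2 scale it was 0.47, 0.49 and 0.73 in Ltbr-/- and -0.19, -0.53 and -0.47 in Ly5.1, a 1.95-fold higher ratio. The Nop10 to Dkc1 ratio was 1.60-fold and the Gar1 to Dkc1 ratio 1.23-fold higher. For each of these ratios, chosen after the values were seen, the exact two-sided permutation test gave p = 0.1, the smallest that 3 against 3 samples allow. For Nhp2 to Dkc1 and Nop10 to Dkc1 this p was fixed beforehand, since Dkc1 lay wholly lower and the other gene wholly higher in Ltbr-/-.

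**Figure D2:**
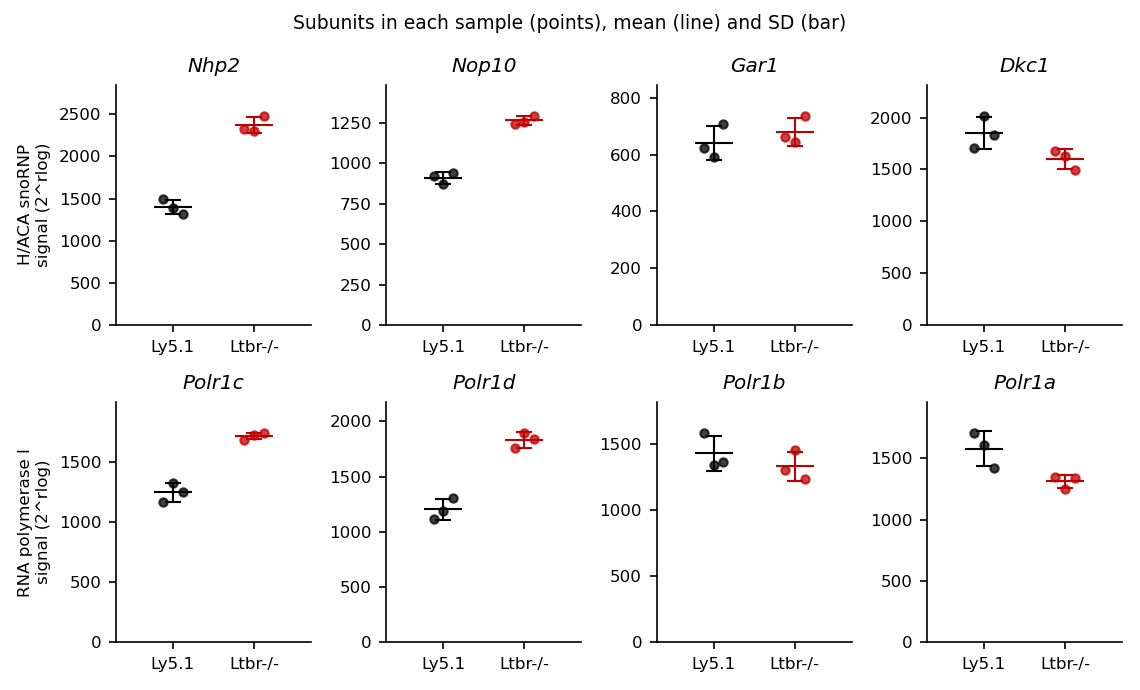
Signal (2 to the power of the regularized log, vertical axes from 0) in the 3 Ly5.1 samples (black) and the 3 Ltbr-/- samples (red) for the 4 H/ACA proteins and for 4 RNA polymerase I subunits; points are samples, lines the mean and bars the SD. On the authors' scaling Nhp2, Nop10, Polr1c and Polr1d do not overlap and are higher in Ltbr-/-, Dkc1 and Polr1a do not overlap and are lower, and Gar1 and Polr1b overlap.

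The RNA polymerase I genes divided in a similar manner. Polr1c, which with Polr1d forms the small heterodimer shared by RNA polymerases I and III, had a signal of 1682, 1719.8 and 1737 in Ltbr-/- and 1164, 1322 and 1251 in Ly5.1. The groups did not overlap, and Polr1c rose, with a log2 fold change of 0.46 (SE 0.08, adjusted p = 8.43e-05). Polr1a, the largest subunit and part of the catalytic centre, had 1345, 1250.2 and 1344 in Ltbr-/- and 1706, 1608 and 1424 in Ly5.1. Its samples were all lower in Ltbr-/-, and Polr1a fell, with a log2 fold change of -0.26 (SE 0.09, adjusted p = 0.0355); the call was lost in the fits without any 1 of the Ltbr-/- samples and without Ly5.1 replicate 1 or 2 (adjusted p from 0.0606 to 0.178) and held without Ly5.1 replicate 3 (0.00773). Polr1b, the other subunit of the catalytic centre, had 1308, 1454 and 1237 in Ltbr-/- and 1584, 1344 and 1364 in Ly5.1. These overlapped, and the log2 fold change was -0.10 (SE 0.09, adjusted p = 0.507). Taf1d, a subunit of the promoter selectivity factor, had 1456, 1621 and 1605 in Ltbr-/- and 1448, 1426 and 1294 in Ly5.1. All Ltbr-/- samples were above the Ly5.1 samples, narrowly, and the log2 fold change of 0.17 (SE 0.09, adjusted p = 0.201) did not pass. Ubtf, which binds along the rDNA and bends it, overlapped between groups (log2 fold change -0.09, adjusted p = 0.491). The ratio of Polr1c to Polr1a within a sample was 1.65-fold and that of Polr1c to Polr1b 1.48-fold higher in Ltbr-/-. Both ratios were chosen after the values were seen (exact two-sided permutation p = 0.1 for both, the smallest possible). For Polr1c to Polr1a this p was fixed beforehand, since Polr1c lay wholly higher and Polr1a wholly lower in Ltbr-/-. Of 15 other RNA polymerase I genes, 3 were called higher (20.0%, against 10.6% of all tested genes) and none lower (against 4.18%): Polr1d, Polr2e and Polr2f. Polr1d, the partner of Polr1c, was the one past both thresholds, with 1757, 1893 and 1841 in Ltbr-/- and 1119, 1187 and 1302 in Ly5.1 and a log2 fold change of 0.61 (SE 0.09, adjusted p = 8.58e-07). Polr2e and Polr2f, named here after their values were seen, encode small subunits common to all 3 nuclear RNA polymerases.

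Among the multifunctional nucleolar proteins Npm1 rose. Npm1 (nucleophosmin), an abundant histone and ribosomal protein chaperone that is often mutated in acute myeloid leukemia, had a signal of 6385, 6464 and 6507 in Ltbr-/- and 4402, 4720.2 and 4645 in Ly5.1. The lowest Ltbr-/- sample was well above the highest Ly5.1 sample, with a log2 fold change of 0.49 (SE 0.07, adjusted p = 9.72e-07). Of 76-base windows of Npm1 transcripts 17.8% also occur in another gene, pseudogenes among them, so part of its signal is uncertain. Nolc1, a chaperone that carries snoRNPs to the nucleolus, had 2833, 3099 and 3003 in Ltbr-/- and 2677, 2534 and 2570.2 in Ly5.1. Its groups did not overlap either, but the log2 fold change of 0.20 (SE 0.08, adjusted p = 0.0811) did not pass. Ddx21, an RNA helicase that couples RNA polymerase I with rRNA processing, had 3021, 3082 and 3219.8 in Ltbr-/- and 3725, 3796 and 3206 in Ly5.1. The highest Ltbr-/- value was just above the lowest Ly5.1 value, with a log2 fold change of -0.20 (SE 0.08, adjusted p = 0.0878). Mybbp1a, a nucleolar protein that also acts on p53, had 7239.8, 7388 and 7445 in Ltbr-/- and 7257, 7249.9 and 7409.8 in Ly5.1, which is the flattest record of the group (log2 fold change of 0.01, SE 0.07, adjusted p = 0.946); after quantile normalization it was -0.24 and called lower. Ncl (nucleolin), the most abundant member, was between 19046 and 20316 in Ltbr-/- and between 18665 and 19093 in Ly5.1, overlapping, with a log2 fold change of 0.05 that turned to -0.35 after quantile normalization and was then called lower.

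In the box C/D particle the 3 shared core proteins among the members, Fbl, Nop56 and Nop58, did not pass and Rrp9, which belongs to the U3 particle alone, rose. Rrp9 had a signal of 1418, 1542 and 1625 in Ltbr-/- and 1283, 1171 and 1252 in Ly5.1. The groups did not overlap, and the log2 fold change was 0.31 (SE 0.09, adjusted p = 0.0118); the call was lost without Ltbr-/- replicate 3 (adjusted p = 0.0933) and without Ly5.1 replicate 2 (0.0595). Fbl (fibrillarin), the methyltransferase, had 1566, 1566 and 1582 in Ltbr-/- and 1428, 1106 and 1524 in Ly5.1. Fbl was nearly the same in the 3 Ltbr-/- samples and was above all Ly5.1 samples, of which replicate 2 was the lowest by far, and the log2 fold change of 0.23 (SE 0.09, adjusted p = 0.104) did not pass. Without Ly5.1 replicate 2 the log2 fold change of Fbl was 0.09, without Ly5.1 replicate 3 it was 0.32 and called higher, and in the upper 25% of names Fbl was called higher too. Nop56, a scaffold protein, had 3964, 4206 and 4283 in Ltbr-/- and 3920, 4004 and 3907 in Ly5.1 (log2 fold change of 0.07, SE 0.07, adjusted p = 0.568). Its counterpart Nop58 had 3540, 3869 and 3872 in Ltbr-/- and 3794, 3820.2 and 3779 in Ly5.1 (log2 fold change of -0.02, SE 0.07, adjusted p = 0.923). Both overlapped between groups. Windows shared with other genes made up 16.9% of Fbl and 14.3% of Nop56. Of 10 other snoRNP and snoRNP assembly genes, 1 was called higher (10.0%, against 10.6% of all tested genes) and none lower (against 4.18%). This was Ruvbl2, an ATPase of the assembly machinery named after its value was seen (log2 fold change 0.48, SE 0.07, adjusted p = 4.65e-06).

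Of the 14 small subunit factors Imp3 alone rose (7.14%), where 10.6% of all tested genes were called higher. Imp3, Imp4 and Mphosph10 form a complex that joins U3 RNA to the precursor. Imp3 had a signal of 591, 634 and 664 in Ltbr-/- and 443, 476 and 515 in Ly5.1. No Ly5.1 sample reached the Ltbr-/- samples, with a log2 fold change of 0.40 (SE 0.09, adjusted p = 0.00212). Imp4 was 875 to 917 in Ltbr-/- and 861 to 989 in Ly5.1, and Mphosph10 1040 to 1069 and 934 to 1043, so the partners overlapped between groups where Imp3 did not. The ratio of Imp3 to Imp4, chosen after the values were seen, was 1.36-fold higher in Ltbr-/- (exact two-sided permutation p = 0.1, the smallest possible). Emg1, which methylates a pseudouridine of the small subunit rRNA, had 2450.2, 2211 and 2681 in Ltbr-/- and 2064, 2092 and 2179 in Ly5.1. All Ltbr-/- samples were above the Ly5.1 samples, replicate 2 only just, and the log2 fold change of 0.21 (SE 0.08, adjusted p = 0.0878) did not pass. Rrp12, which takes part in subunit export, had 875, 919.5 and 980.2 in Ltbr-/- and 1179, 1017 and 1093 in Ly5.1. Tsr1, a GTPase-like late assembly factor, had 1024, 958 and 995 in Ltbr-/- and 1091, 1203 and 1232 in Ly5.1. Rrp12 and Tsr1 were below the Ly5.1 samples in every Ltbr-/- sample and just missed the threshold, with a log2 fold change of -0.24 (SE 0.09, adjusted p = 0.0607) and a log2 fold change of -0.24 (SE 0.09, adjusted p = 0.0555) respectively. The other 10, among them Wdr43, Wdr75 and Heatr1 of the complex that links rDNA transcription to processing, the rRNA acetyltransferase Nat10 and the endonuclease Nob1, had log2 fold changes from -0.12 (Wdr43) to 0.19 (Bysl), and none was called.

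Of the 12 large subunit factors Nip7 alone rose (8.33%), where 10.6% of all tested genes were called higher. Nip7, an RNA-binding factor of the precursor particle, had a signal of 1382, 1338 and 1404 in Ltbr-/- and 1226, 1169.7 and 1085 in Ly5.1. Its groups did not overlap, with a log2 fold change of 0.25 (SE 0.09, adjusted p = 0.0466). The call was lost without any 1 of the Ltbr-/- samples and without Ly5.1 replicate 2 or 3 (adjusted p from 0.0802 to 0.15), and held without Ly5.1 replicate 1 (0.0433). It was also lost without a filter on low values and after quantile normalization. Wdr12, which with Pes1 and Bop1 forms the PeBoW complex, had 627, 642 and 834 in Ltbr-/- and 565, 580.2 and 665 in Ly5.1. Replicate 3 of Ltbr-/- stood high, the other values overlapped, and the log2 fold change of 0.21 (SE 0.10, adjusted p = 0.181) did not pass. Pes1 and Bop1 had log2 fold changes of 0.11 and 0.13. Rrs1, which brings in the 5S ribonucleoprotein, had 508, 467 and 471 in Ltbr-/- and 526, 459.9 and 573 in Ly5.1. Rrp1, an early assembly factor, had 3437, 3549 and 3678 in Ltbr-/- and 3719, 3307 and 4000.4 in Ly5.1. Both overlapped, with a log2 fold change of -0.10 (SE 0.10, adjusted p = 0.527) and a log2 fold change of -0.04 (SE 0.08, adjusted p = 0.769). The other members, among them the rRNA methyltransferases Nop2 and Ftsj3 and Gnl3 (nucleostemin), a GTPase found at high levels in stem cells, lay between 0.03 (Ftsj3) and 0.20 (Rrp1b) with no call.

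**Figure D3:**
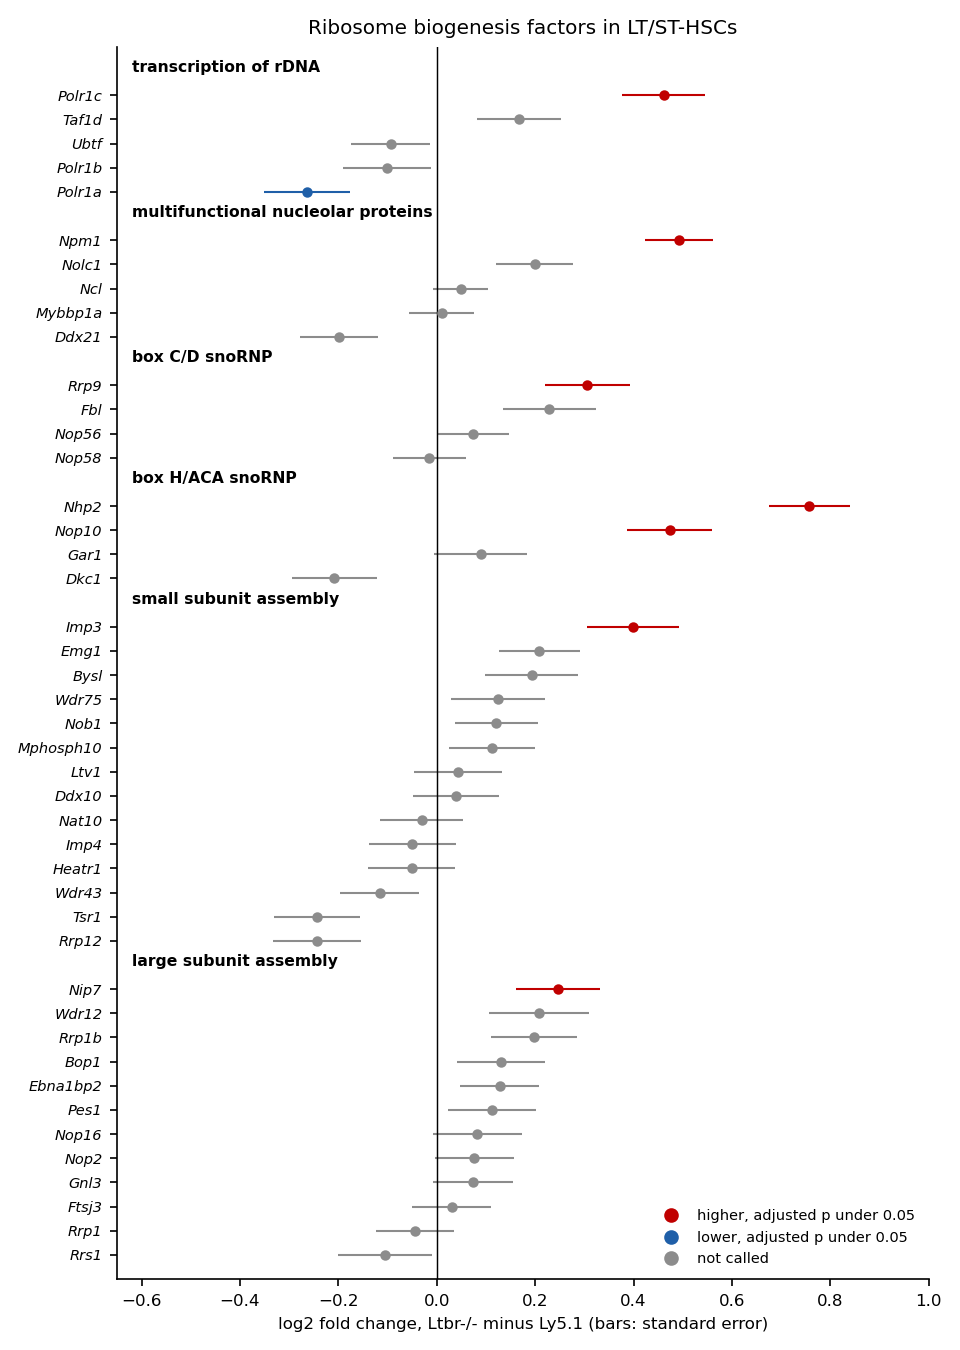
Log2 fold change (Ltbr-/- minus Ly5.1, horizontal axis, authors' scaling) of the 44 members by role, with the standard error from limma as bars; red points were called higher, the blue point was called lower and grey points were not called. The 7 red points run from 0.25 (Nip7) to 0.76 (Nhp2) and the blue point is Polr1a at -0.26; centred on ribosomal protein genes, all points lie below 0.

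By role, the median log2 fold change was -0.09 for rDNA transcription (5 members), 0.05 for the multifunctional nucleolar proteins (5), 0.15 for box C/D (4), 0.28 for box H/ACA (4), 0.04 for the small subunit (14) and 0.10 for the large subunit (12). These medians are descriptions of small lists. Quantile normalization turned that of the multifunctional nucleolar proteins to -0.24 and took that of box C/D to 0.0799, and the loess correction for length and GC content described next gave 0.14 for the multifunctional nucleolar proteins, 0.0875 for box C/D and 0.15 for box H/ACA. The summed signal of the H/ACA genes was 5830 to 6000 in Ltbr-/- and 4740 to 4870 in Ly5.1, which did not overlap, although Dkc1 within it was lower. The sums of the multifunctional nucleolar proteins (38500 to 40500 against 36500 to 37400) and, narrowly, of box C/D did not overlap either, and those of the other 3 roles did.

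Fold changes were higher in members with a short coding sequence. The 12 members with a coding length under 1000 bases included 5 of the 7 higher ones (41.7%, against 19.2% of all tested genes of that length) and had a median log2 fold change of 0.22. Of the 13 members from 1000 to 2000 bases, 2 were called higher (Polr1c and Rrp9; 7.77% of all tested genes of that length), and of the 19 longer members none was called higher (3.39%) and Polr1a was called lower (7.85%). Nop10, with 192 bases, is the shortest member, Nhp2 has 459, Dkc1 1527, Polr1c 1038, Polr1a 5151 and Heatr1, the longest, 6429. Across the 44 members Spearman's rho of log2 fold change with coding length was -0.64, across 129 other ribosome biogenesis genes -0.53, and across the 11884 tested genes with a known coding length -0.37. These are correlations across genes measured in the same 6 libraries, which are not independent replicates, and they are given as descriptions. GC content of the transcript had a rho of 0.11 over the members. After a loess correction of every sample for transcript length and GC content, Nhp2 (0.60), Npm1 (0.43), Polr1c (0.33), Nop10 (0.35) and Nip7 (0.26) were still called higher, Rrp9 (0.19), Imp3 (0.23) and Polr1a (-0.16) were not called, and Ncl, Nolc1, Wdr12 and Rrp1b were added, which made 9 higher, where 8.83% of the 12687 genes in that fit were, and 0 lower, where 7.28% were. The correction used the longest protein-coding transcript, not the coding length. In the added members these were 8202 against 2121 bases (Ncl), 3634 against 2106 (Nolc1), 10012 against 1269 (Wdr12) and 4874 against 2172 (Rrp1b). A correction by coding length was not tested.

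**Figure D4:**
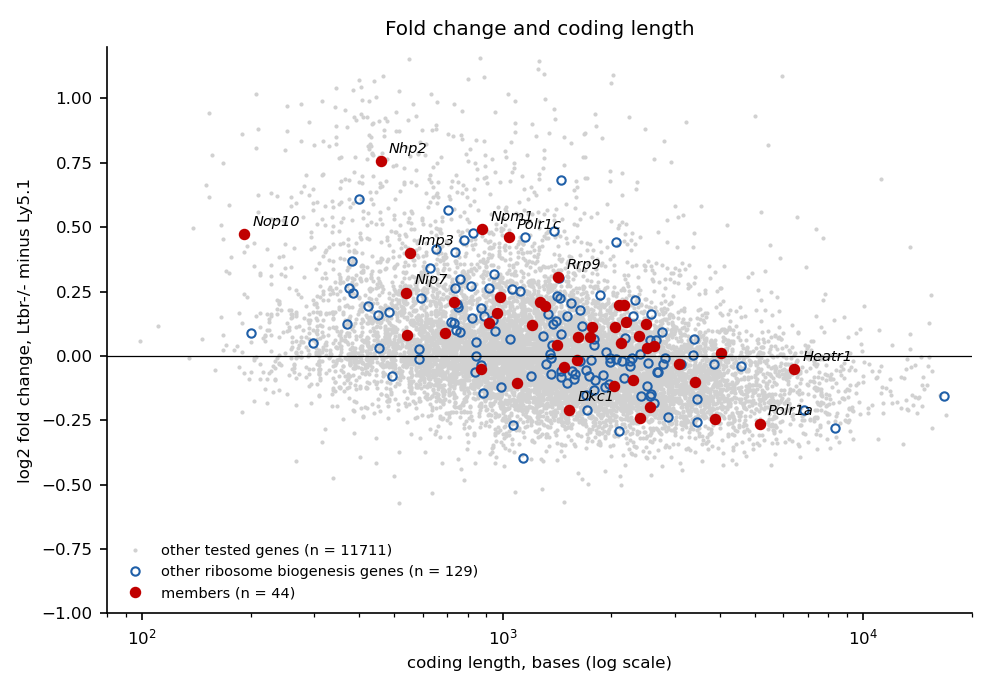
Log2 fold change (Ltbr-/- minus Ly5.1, authors' scaling) against coding length in bases (log scale) for the 44 members (red), 129 other ribosome biogenesis genes (blue circles) and other tested genes (grey); values beyond -1 and 1.2 are outside the frame. Short members such as Nop10 and Nhp2 lie high. Of the 19 members over 2000 bases 10 lie above 0, with a median of 0.01, and Heatr1 and Polr1a lie below 0. Centred on ribosomal protein genes, all members lie below 0.

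A number of members hold small nucleolar RNA genes within their span in the annotation. With 8 of 44 members (18.2%) against 1.78% of tested genes, hosts were common among them: Ncl, Nop56, Nop58, Taf1d, Dkc1, Wdr43, Tsr1 and Gnl3. None of the 8 was called, where 10.6% of all tested genes were called higher and 4.18% lower. Their log2 fold changes ran from -0.24 to 0.17 with a median of 0.02, and the 36 members without such a gene had a median of 0.11. Over all tested genes 60 of 226 hosts were called higher and 11 lower, where 1267 of 12461 other genes were called higher. The median was 0.01 over these hosts and -0.01 over the other genes. With 8 host members, a difference from the other hosts was not tested. By position, Nop2 lies 0.17 Mb and Emg1 0.6 Mb from Ltbr on chromosome 6 (GRCm38.p6); their log2 fold changes were 0.08 and 0.21 and neither was called.

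The wider pathway was close to the members in its counts. Of 129 tested other ribosome biogenesis genes 18 were called higher (14.0%, against 10.6% of all tested genes) and 3 lower (2.33%, against 4.18%). Their median log2 fold change was 0.04. Past both thresholds were Polr1d and Gltscr2 (also Nop53), a large subunit factor with a signal of 7183, 8147 and 8160 in Ltbr-/- and 4752, 4508 and 5379 in Ly5.1; these groups did not overlap, and the log2 fold change was 0.68 (SE 0.07, adjusted p = 3.86e-09). Of 45 other small subunit genes 4 were called higher and 2 lower, of 45 other large subunit genes 7 and 1, and of the 14 genes of the RNA exosome, which trims and degrades precursor RNA, 3 and 0. The lower genes, Utp20, Krr1 and Surf6, are named after their values were seen. Of the 10 tested genes of the Myc network, whose central factor drives many ribosome biogenesis genes, Myc alone was called higher. That is 10.0% of the list, near the 10.6% of all tested genes called higher. The signal of Myc was 4029, 3937 and 4191 in Ltbr-/- and 3373, 3350 and 3731 in Ly5.1, without overlap. Its log2 fold change was 0.22 (SE 0.08, adjusted p = 0.0443), close to the limit of 0.05.

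The proteins of the ribosome itself gave other counts than the factors that build it. Of 82 cytosolic ribosomal protein genes, paralogs included, 79 were called higher (96.3%) and Rpl21 lower, with a median log2 fold change of 0.79 on the authors' scaling. Their median within a sample, relative to the Ly5.1 mean, was 0.74, 0.80 and 0.85 in the Ltbr-/- samples and -0.06, -0.07 and 0.12 in the Ly5.1 samples. The median over the 44 members was 0.06, 0.07 and 0.13 in the Ltbr-/- samples and 0.01, -0.03 and 0.04 in the Ly5.1 samples, so that the members differed between groups by a small part of the difference of the ribosomal protein genes. Of the members, Nhp2 came nearest to the ribosomal protein genes. Of 76 mitochondrial ribosomal protein genes 24 were called higher (31.6%) and none lower, with a median of 0.20. These lists were set beside the members with earlier results known, and the difference between lists was not tested.

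**Figure D5:**
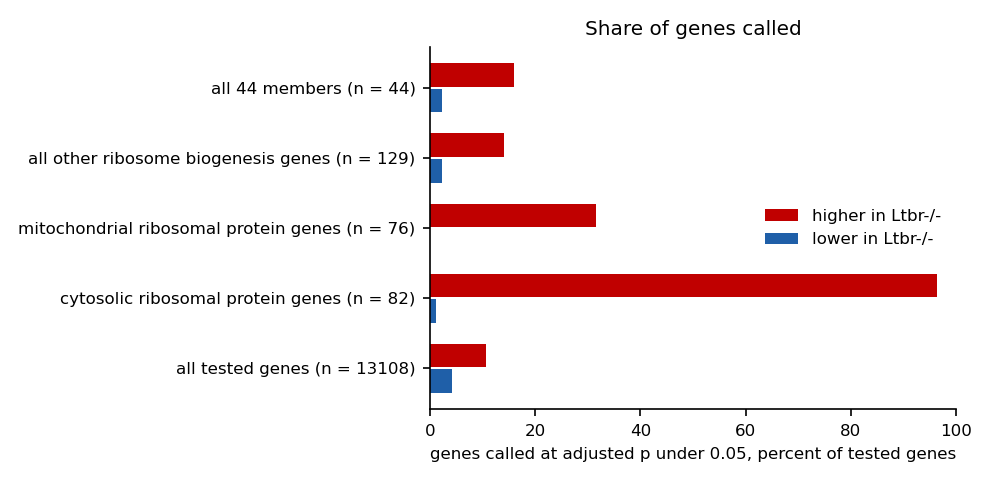
Share of tested genes called higher (red) or lower (blue) in Ltbr-/- at an adjusted p under 0.05, in percent on an axis from 0 to 100, for the members, the other ribosome biogenesis genes, mitochondrial and cytosolic ribosomal protein genes and all tested genes, on the authors' scaling. The members (15.9% higher) and the other biogenesis genes (14.0%) lie close to all tested genes (10.6%), and the cytosolic ribosomal protein genes lie at 96.3%; centred on those genes, no member is called higher.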

How the data were processed

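RNA of FACS-sorted LT/ST-HSCs from mixed chimeras was made into stranded poly(A) libraries and sequenced as single reads on an Illumina NextSeq 500. The authors assembled and quantified the reads with SeqMan NGen and ArrayStar. What they deposited per gene is a signal, which by its values is 2 to the power of a regularized log, which scales samples by size factors and shrinks weak genes. The submitters' processing notes name DESeq2, GRCm38 and mm10; the annotation is not given in the sources used here. Depth is unknown from the files, so no counting interval was computed. Replicates are pools of sorted cells, and p-values measure the spread between them.

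Of 26595 entries per sample, 379 repeated a name; of these the one highest on average was used. Names with a mean in the upper 50% (13108) were fitted on the log2 of the signal with limma 3.58.1 in R 4.3.3 (lmFit, eBayes with trend), with Benjamini-Hochberg adjustment over all of them, and thresholds of 0.05 and a fold of 1.5. The script was tested on simulated data. Exact permutation tests used scipy 1.17.1. The members, the gene lists and the motifs were chosen with earlier results of these data known. Per-sample values were given for members past both thresholds and for the 2 highest and 2 lowest of each role. Coding and transcript lengths, nested small nucleolar RNA genes and distances to Ltbr came from GENCODE M21. Promoters came from RefSeq (GRCm38.p6), and 22316 of 26216 names matched a RefSeq symbol. Alternatives were a replicate block, other filters, scalings and variance models, a pseudocount, a loess correction and leaving out each sample.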

Additional observations from a re-analysis of the deposited data

How the results depend on the processing

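Polr1c, Npm1, Nhp2 and Nop10 were called higher in the main fit and under every alternative other than centring on ribosomal protein genes, 17 fits in all. The fit with the replicate block, the replicate number as a term, gave 7 members higher and 1 lower, the same calls. Same-numbered samples deviated together only weakly (correlations 0.03, -0.01 and 0.09 for numbers 1, 2 and 3). Ltbr-/- 1 correlated slightly better with Ly5.1 2 (0.05) than with Ly5.1 1. Values this small cannot show whether same-numbered samples were paired, and the numbers were not taken as pairs. Centring on all tested genes, a pseudocount of 16 and the mean of repeated entries also left every call as it was. Members called lower numbered 1 in the main fit and 0 without a filter on low values, without moderation and after the loess correction. They numbered 2 with eBayes without trend (3.41% of all tested genes), 4 in the upper 25% (8.86%) and 7 after quantile normalization (6.97%). The cause of these changes was not tested. The number called higher was 4 without moderation (3.66% of all tested genes), 6 without a filter (6.89%) and after quantile normalization (9.51%), both losing Nip7, 9 after the loess correction (8.83%) and 10 in the upper 25% (17.9%). Leaving out 1 sample at a time gave 5 to 7 members higher, 0 to 2 lower and 1 past both thresholds, a median of 0.05 to 0.11 over the members, 0.0874 to 0.1915 for box C/D and 0.24 to 0.33 for box H/ACA. Quantile normalization gave medians of -0.24 for the multifunctional nucleolar proteins and 0.0799 for box C/D and turned Ncl to -0.35 and Mybbp1a to -0.24; the loess correction gave medians of 0.14 for the multifunctional nucleolar proteins, 0.0875 for box C/D and 0.15 for box H/ACA.

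Centring on the cytosolic ribosomal protein genes shifts every gene down by construction. It gave 0 members higher (0.198% of all tested genes), 43 lower (97.9%) and 38 past both thresholds, with medians of -0.79 over the members, -0.97 for rDNA transcription, -0.83 for the multifunctional nucleolar proteins, -0.72 for box C/D, -0.59 for box H/ACA, -0.83 for the small subunit and -0.78 for the large subunit. The log2 fold changes that turned from above to below 0 were Polr1c -0.41, Taf1d -0.71, Ncl -0.83, Npm1 -0.38, Nolc1 -0.67, Mybbp1a -0.86, Fbl -0.64, Nop56 -0.80, Rrp9 -0.57, Nhp2 -0.12, Nop10 -0.40, Gar1 -0.78, Wdr75 -0.75, Ddx10 -0.83, Imp3 -0.47, Mphosph10 -0.76, Emg1 -0.66, Nob1 -0.75, Bysl -0.68, Ltv1 -0.83, Bop1 -0.74, Pes1 -0.76, Wdr12 -0.67, Nop2 -0.80, Nop16 -0.79, Nip7 -0.63, Ebna1bp2 -0.75, Gnl3 -0.80, Rrp1b -0.68 and Ftsj3 -0.84. The files hold no read counts, so what depth limits could not be computed; precision rests on the spread among 3 samples a group.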
